A study of Rattus norvegicus with 31 samples.

Results

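The livers of rats fed a high-fat diet (H-group) were compared with those of rats fed a moderate-fat diet (M-group). The comparison took 8 of the 31 arrays of the series, those labelled as liver of the M-group (rats M6, M8, M9 and M10) and of the H-group (rats H12, H13, H15 and H16), and covered all 31042 probe sets that are not controls. All were male Wistar rats, an outbred strain, 3 weeks old on arrival. Fat supplied 20% of the energy in the M-diet and 45% in the H-diet, carbohydrate 60% and 35%, and the exchange was of corn starch for soybean oil, with lard, casein and sucrose kept. Both groups had chow for a week and their own diet freely for another week. For the next 9 weeks they were given the energy that the low-fat L-group (15% fat and 65% carbohydrate, 5 livers) ate freely, so neither group fed freely and the question is one of diet composition at equal energy. The rats were fasted for 17 h, and liver pieces were kept in RNAlater before RNA extraction. The design left out 1 rat of each group for low food intake, and each array stands for a separate rat. Of 11 measured hepatocyte markers, all had a mean above the median of the arrays, and their summed linear level was 102000 to 105000 in the M-group and 102000 to 107000 in the H-group. In 12 marker lists of other cell types and tissues, 118 genes in all, rank products called no gene, against 0.943% of all genes. At so low a share the lack of calls says little about these cells. Many of the markers also lay below the median of the arrays, such as 10 of 11 for skeletal muscle and 9 of 11 for exocrine pancreas. In a piece of whole liver, fewer cells of a type and less RNA per cell cannot be told apart.

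The liver makes cholesterol from acetyl-CoA by a chain of enzymes whose genes are switched on together by SREBP-2 when sterols in the cell run low. It disposes of sterol as bile acid, through the hydroxylase CYP7A1, and by export into bile through the ABCG5/ABCG8 half-transporters. The desaturase SCD makes monounsaturated fatty acids and is known to fall on diets rich in polyunsaturated oils. After a fast the liver also answers to glucagon through cAMP and to growth hormone through STAT5, and its enzymes are laid out in zones, from the periportal to the pericentral end of the lobule.

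Differences between the diets were small for most of the transcriptome. The median log2 difference, H minus M, was 0.00022 over all probe sets, and the middle 98% of them lay between -0.34 and 0.37. Correlations between arrays averaged 0.99335 within the M-group, 0.99471 within the H-group and 0.99372 between them. Rank products, which multiplies the ranks of a probe set over all pairwise ratios of an H array to an M array, called 131 probe sets higher in the H-group (0.422% of those tested) and 106 lower (0.341%) at a false discovery rate (FDR) under 0.05. These 237 differentially expressed probe sets (0.763%) carried the symbols of 89 genes called higher and 63 called lower. Their absolute log2 difference had a median of 0.70. The M and H rats did not overlap in 86 of them, against 913 of all probe sets (2.94%). Rank products ranks ratios of the same values, so lack of overlap among its calls is no support of its own. limma, which sets each difference against the spread among rats, passed 4 probe sets (0.0129%) at an adjusted p under 0.05, 2 higher and 2 lower (0.00644% each), and rank products had called all 4. The rank products count depended on single rats. It was 146 without H13 and 151 without M10, calls higher numbered 58 to 81 without any 1 H rat, and calls lower numbered 62, 52 and 45 without M8, M9 and M10. At an unadjusted limma p under 0.05 there were 1827 (5.89%), of which 161 were rank products calls. Below, "rose" and "fell" are used only of the 4, and other genes are given as called higher or lower by rank products, with the limma estimate ± its standard error and adjusted p.

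**Figure D1:**
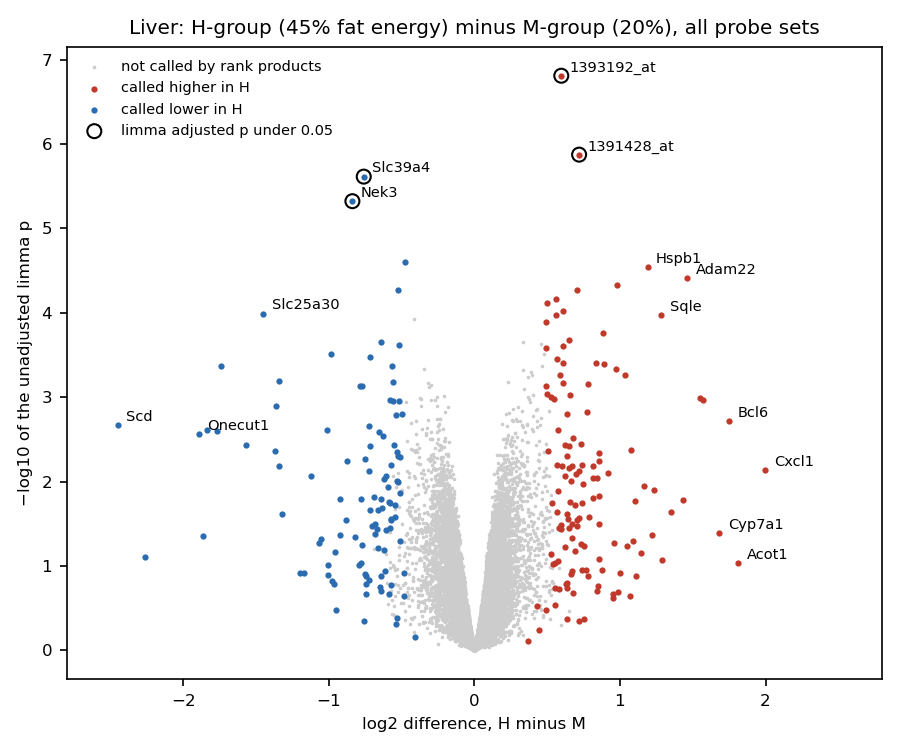
Log2 difference of each of 31042 probe sets between the H-group and the M-group (horizontal axis, 4 rats each) against the negative log10 of its unadjusted limma p (vertical axis). Red points are the 131 probe sets called higher and blue points the 106 called lower by rank products. The 4 circled probe sets passed limma, and the widest differences, from -2.45 for Scd to 2.0 for Cxcl1, lie lower on the vertical axis and have wider standard errors.

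Slc39a4, the zinc importer ZIP4, fell. Its log2 level was 7.27, 7.48, 7.50 and 7.50 in rats M6, M8, M9 and M10, and 6.82, 6.38, 6.78 and 6.74 in rats H12, H13, H15 and H16, an order kept for all values below. Every H rat lay below every M rat, and the fall of 1.69-fold (log2 -0.76 ± 0.10, adjusted p = 0.0253) came with a mean of 7.48 in the L-group, close to the M-group. Nek3, a kinase of the NIMA family, also fell. Its levels were 6.57, 6.33, 6.77 and 6.22 in the M-group and 5.59, 5.69, 5.72 and 5.54 in the H-group (log2 -0.84 ± 0.11, adjusted p = 0.037). Again the groups did not overlap, but here the L-group stood near the H-group, at a mean of 5.46 (M minus L 1.01, adjusted p = 0.00462). The M minus L contrast uses the same M arrays as H minus M, so its adjusted p is no independent support. The L values are given only side by side.

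The other 2 probe sets that passed limma carry no gene symbol. The probe set 1393192_at was at 7.55, 7.63, 7.56 and 7.55 in the M-group and at 8.36, 8.12, 8.09 and 8.11 in the H-group, a rise of 0.60 ± 0.06 (adjusted p = 0.00483). The M rats lay within a narrow band below all H rats, and the L-group was as high as the H-group, with a mean of 8.12. The probe set 1391428_at was at 4.0, 3.88, 3.81 and 3.78 in the M-group and at 4.76, 4.70, 4.47 and 4.43 in the H-group, a rise of 0.72 ± 0.09 (adjusted p = 0.0208). The groups did not overlap, and the L-group, at 3.84, stood with the M-group. This probe set was dim, with all M rats, H15 and H16 below the array medians of 4.671 to 4.698. All 4 calls needed the L arrays for their estimate of the spread. With the 8 M and H arrays alone none passed, with adjusted p of 0.147 for Slc39a4 and Nek3 and 0.122 for the other pair, at the same log2 differences. Without 1 of the 13 liver arrays 1393192_at still passed in every case. Slc39a4 did not pass without L4, M8, M9, M10, H12 or H16 (adjusted p up to 0.123, without M10), nor 1391428_at without M8, M9, M10, H12 or H13 (up to 0.114, without M9). Nek3 passed only when the rat left out was L2, L5 or M10, and its adjusted p reached 0.15 without H12. The log2 difference stayed between -0.82 and -0.66 for Slc39a4 and between -0.92 and -0.74 for Nek3.

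**Figure D2:**
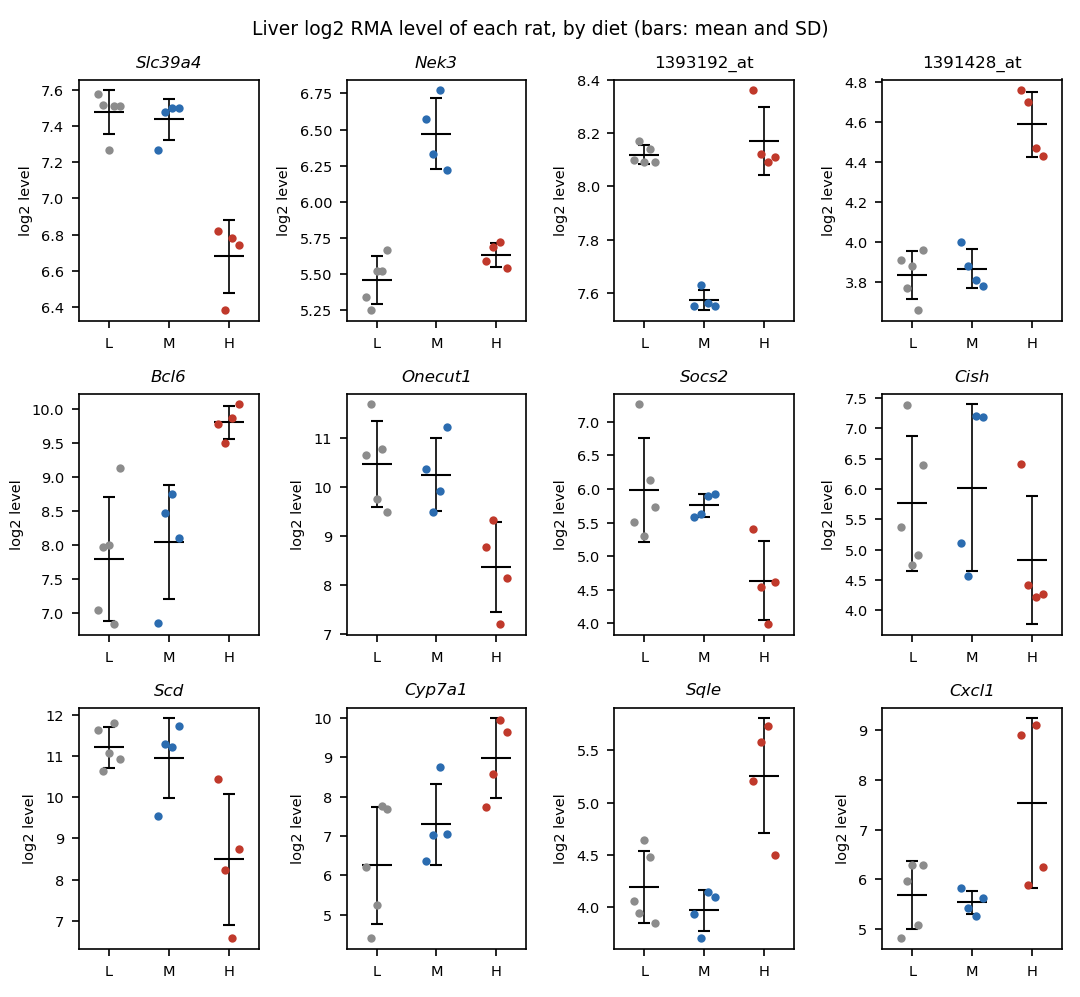
Log2 RMA level (vertical axis, its range set for each gene) of each rat of the L-, M- and H-groups (horizontal axis, 5, 4 and 4 livers) for the 4 probe sets past limma and 8 genes called by rank products. Bars are means and SDs. For Slc39a4, 1391428_at and Bcl6 the 4 H rats stand apart from both other groups, and for Nek3 and 1393192_at the 4 M rats do.

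Among the other probe sets called by rank products without overlap between the groups, the differences reached 2.0 upward and -1.89 downward. Cxcl1, a chemokine that attracts neutrophils, was at 5.82, 5.43, 5.27 and 5.62 in the M-group and at 8.91, 5.89, 9.10 and 6.24 in the H-group (2.0 ± 0.63, adjusted p = 0.706). Rats H12 and H15 carried most of this difference, while H13 lay only just above the highest M rat. Adam22, a metalloprotease-like protein without protease activity known as a receptor in neurons, was at 4.0, 3.13, 3.66 and 3.38 in the M-group and at 4.86, 5.24, 4.95 and 4.97 in the H-group. All H rats were alike and above all M rats (1.46 ± 0.24, adjusted p = 0.168), but of 3 probe sets for the gene only this one was called, and the others differed by 0.05 and 0.34. Mmd2 was at 4.80, 5.37, 5.10 and 4.40 against 7.01, 6.95, 5.68 and 6.33 (1.57 ± 0.38, adjusted p = 0.468), with H15 nearest to the M rats. Lox, which cross-links collagen, was at 7.50, 7.19, 8.21 and 8.43 against 8.53, 9.60, 8.75 and 9.34 (1.22 ± 0.55, adjusted p = 0.832). Its L-group mean, 6.53, lay below both. Smaller differences without overlap were those of Ccdc68 (1.04 ± 0.23), Obp1f, an odorant-binding protein (0.97 ± 0.21), Rtn4, which shapes the endoplasmic reticulum (0.89 ± 0.19), Rdh16, a retinol dehydrogenase (0.86 ± 0.26), and Atp8a1, a phospholipid flippase (0.84 ± 0.28). For 3 of these genes a brighter probe set overlapped between the groups, at 1.15 ± 0.58 for Lox and 0.67 ± 0.21 for Rtn4, both called higher, and at 0.37 ± 0.19 for Atp8a1, not called.

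In the lower direction Slc25a30, a mitochondrial carrier, was at 10.73, 10.38, 10.70 and 11.77 in the M-group and at 9.53, 9.85, 8.89 and 9.52 in the H-group (-1.45 ± 0.27, adjusted p = 0.208). Its other probe set gave -1.74 ± 0.38, also without overlap, so both probe sets of this gene separated the 8 rats. Pdzrn3, a ubiquitin ligase, was at 8.01, 7.47, 6.87 and 7.70 against 5.51, 6.74, 6.56 and 5.80 (-1.36 ± 0.34, adjusted p = 0.501), with M9 only just above H13. Smaller differences of this kind were those of Atxn7l1 (-0.87 ± 0.27), Vgll4, a cofactor of TEAD factors (-0.75 ± 0.23), Sult2a6, a hydroxysteroid sulfotransferase (-0.68 ± 0.30), Hbs1l, a ribosome rescue factor (-0.58 ± 0.14), and Ahctf1, a nucleoporin (-0.56 ± 0.12). Sult2a6 belongs to a family of near-identical genes, and its probes may read more than one of them. Vgll4 and Sult2a6 had a single probe set. The other probe set of Atxn7l1 was at -0.04 and that of Hbs1l at 0.02, and of 3 probe sets for Ahctf1, all on the lower side, only this one was called.

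Genes of cholesterol synthesis lay higher in the H-group along nearly the whole pathway. Of 17 measured enzymes, 16 were higher and 1 lower, with a median log2 difference of 0.37, against 52.4% higher and a median of 0.00508 over 14217 genes. Rank products called 5 of them higher (0.57% of all genes), 9 had an unadjusted limma p under 0.05 on the higher side (3.65%), and limma passed none after adjustment (0.0141% of all genes). The median of the 17 ran from 0.26 to 0.47 without 1 rat, and was 0.27 when the probe sets of each gene were averaged. The calls run along the pathway, from Acat2, which joins acetyl-CoA units, over Idi1, which isomerizes the isoprene unit, to Sqle, which opens the sterol branch, and Msmo1 and Hsd17b7, which trim lanosterol. The study reports that livers of the H-group held more triacylglycerol, total cholesterol and bile acid than those of the L-group. How this relates to the enzymes was not tested.

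Sqle, squalene epoxidase, was at 3.93, 3.70, 4.14 and 4.10 in the M-group and at 5.21, 5.58, 5.73 and 4.50 in the H-group (1.28 ± 0.24, 2.44-fold, adjusted p = 0.208). All H rats were above all M rats, H16 by the least. With single liver arrays left out the difference of Sqle ran from 1.13 to 1.54 and its limma adjusted p from 0.029 to 0.497. Sqle passed only without H16 (1.54 ± 0.19). Leaving out that rat must widen the difference, so this pass is no support. Sqle was dim, with all M rats and H16 below the array medians of 4.671 to 4.698. Idi1 was at 6.44, 6.48, 6.55 and 6.87 against 6.89, 7.84, 7.88 and 6.99 (0.82 ± 0.25, adjusted p = 0.706), and its other probe set gave 0.74. Rats H13 and H15 were the high ones and H12 and H16 lay just above M10. The same rats led over the list. The median deviation of the 17 genes from their mean over the 8 arrays was 0.39 in H13 and 0.31 in H15, 0.11 in H12 and -0.07 in H16, against -0.27 to -0.09 in the M rats. All H rats thus lay above all M rats on this measure, H16 by the least.

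Acat2 was the steadiest of the called genes, at 4.74, 4.61, 4.99 and 5.04 against 5.33, 5.63, 5.53 and 5.32 (0.61 ± 0.11, adjusted p = 0.208), without overlap. Msmo1 was at 7.17, 7.07, 7.72 and 7.65 against 7.82, 8.19, 8.42 and 7.83 (0.66 ± 0.22), also without overlap. Hsd17b7 differed by 0.53 ± 0.20, and M9 (6.65) lay above H12 and H16. The enzymes not called by rank products ranged from 0.52 ± 0.21 for Tm7sf2, 0.44 ± 0.14 for Fdps, 0.43 ± 0.18 for Cyp51 and 0.37 ± 0.16 for Lss down to -0.06 ± 0.19 for Fdft1. Srebf2, which encodes SREBP-2 itself, was at 6.30, 6.29, 6.17 and 6.42 against 6.38, 6.73, 6.71 and 6.30 (0.24 ± 0.09, adjusted p = 0.804), with H13 and H15 again the high rats. Its other probe set differed by -0.00, and neither was called.

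The promoters of 3 of the called enzymes are shown because genes of sterol synthesis are known to carry binding sites for the CCAAT-binding factor NF-Y, a partner of SREBP-2. The windows span 250 bases before and 50 bases after the RefSeq start of the gene in rat build GRCr8, at chr17:66547475-66547774 on the minus strand for Idi1, chr16:29746863-29747162 on the plus strand for Msmo1 and chr13:84722705-84723004 on the minus strand for Hsd17b7. Capitals mark CCAAT or, for a match on the other strand, ATTGG.
Idi1: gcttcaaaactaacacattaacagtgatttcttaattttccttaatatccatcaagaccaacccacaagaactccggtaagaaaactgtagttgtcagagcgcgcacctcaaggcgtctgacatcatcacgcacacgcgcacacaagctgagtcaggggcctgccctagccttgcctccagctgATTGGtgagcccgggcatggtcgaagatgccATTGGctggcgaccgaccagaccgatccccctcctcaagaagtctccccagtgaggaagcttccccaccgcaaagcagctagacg
Msmo1: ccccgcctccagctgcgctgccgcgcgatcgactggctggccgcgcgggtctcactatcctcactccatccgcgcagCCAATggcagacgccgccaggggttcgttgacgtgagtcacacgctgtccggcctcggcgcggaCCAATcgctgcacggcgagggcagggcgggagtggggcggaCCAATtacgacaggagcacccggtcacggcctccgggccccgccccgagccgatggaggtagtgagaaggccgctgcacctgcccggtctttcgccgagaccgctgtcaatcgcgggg
Hsd17b7: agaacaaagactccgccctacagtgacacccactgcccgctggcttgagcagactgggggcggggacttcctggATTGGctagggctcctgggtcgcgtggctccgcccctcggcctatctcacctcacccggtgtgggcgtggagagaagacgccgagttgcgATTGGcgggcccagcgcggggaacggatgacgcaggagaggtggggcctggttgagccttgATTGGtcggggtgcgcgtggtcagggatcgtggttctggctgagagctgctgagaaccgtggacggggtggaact
The Idi1 window held 2 matches and the other windows 3 each. Searched on both strands, CCAAT was in 11 of the 14 windows found for genes of the cholesterol synthesis list (78.6%), against 36.8% of the 13194 windows of genes with a probe set here. The sterol element core TCACNCCAC was in 0 of the 14 and in 1.07% of the 13194. These are matches of letters in a fixed window and were not tested as binding sites.

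Of 12 measured genes for sterol efflux and esterification rank products called 2 higher, against 0.57% of all genes. Abcg5 was at 7.72, 7.32, 7.57 and 7.49 in the M-group and at 7.95, 8.44, 7.94 and 8.08 in the H-group (0.58 ± 0.20, adjusted p = 0.756). Its partner Abcg8 was at 3.49, 3.29, 3.26 and 3.23 against 4.05, 4.30, 3.56 and 3.96 (0.65 ± 0.13, adjusted p = 0.31). Neither gene overlapped between the groups, both were called higher by rank products, and H13 was the highest rat for both. Without 1 of the 13 liver arrays the difference of Abcg8 ran from 0.54 to 0.78 and its limma adjusted p from 0.0328 to 0.749. It passed only without H15, the H rat with the lowest Abcg8 (0.78 ± 0.10). Leaving out that rat must widen the difference, so this pass is no support. Abcg8 was dim, with every M and H rat below the array medians of 4.671 to 4.698. Of the other 10 measured genes for sterol efflux and esterification none was called, and Abca1 differed by 0.14 ± 0.18.

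Abcg5 and Abcg8 are read in opposite directions from starts that lie close together, so that their promoter windows (chr6:15717686-15717985, plus strand, and chr6:15717681-15717980, minus strand, GRCr8) share 295 of 300 bases. The stretch is shown once, as read for Abcg5, with its single CCAAT match, on the minus strand, in capitals.
Abcg5: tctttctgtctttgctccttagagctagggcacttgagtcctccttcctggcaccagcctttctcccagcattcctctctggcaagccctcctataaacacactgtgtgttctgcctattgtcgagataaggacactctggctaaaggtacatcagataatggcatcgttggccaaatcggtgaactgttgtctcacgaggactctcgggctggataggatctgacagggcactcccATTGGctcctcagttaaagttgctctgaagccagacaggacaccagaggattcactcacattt

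Cyp7a1, which begins bile acid synthesis, was at 6.36, 7.02, 8.75 and 7.06 in the M-group and at 7.75, 8.58, 9.95 and 9.64 in the H-group. It was called higher by rank products (1.68 ± 0.75, 3.21-fold, adjusted p = 0.832), but the groups overlapped, since M9 lay above H12 and H13. The L-group mean was 6.27, below both. Cyp7b1, of the alternative pathway, differed by 0.58 ± 0.34, and this rested on rat H12 (4.95, against 2.96 to 3.29 in the other H rats), without which it was 0.12. Acox2, a peroxisomal oxidase of bile acid side chains, was at 10.98, 10.99, 11.24 and 10.77 against 11.26, 11.25, 11.31 and 11.33 (0.29 ± 0.10, adjusted p = 0.722), a small difference without overlap. Slc27a5, which activates bile acids for conjugation, differed by 0.24 ± 0.09. In all, 9 of 13 measured genes of bile acid synthesis were higher (52.4% of all genes) and 4 lower, with a median of 0.09 (0.04 without M8). Rank products called Cyp7a1 alone, against 0.57% of all genes called higher.

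**Figure D3:**
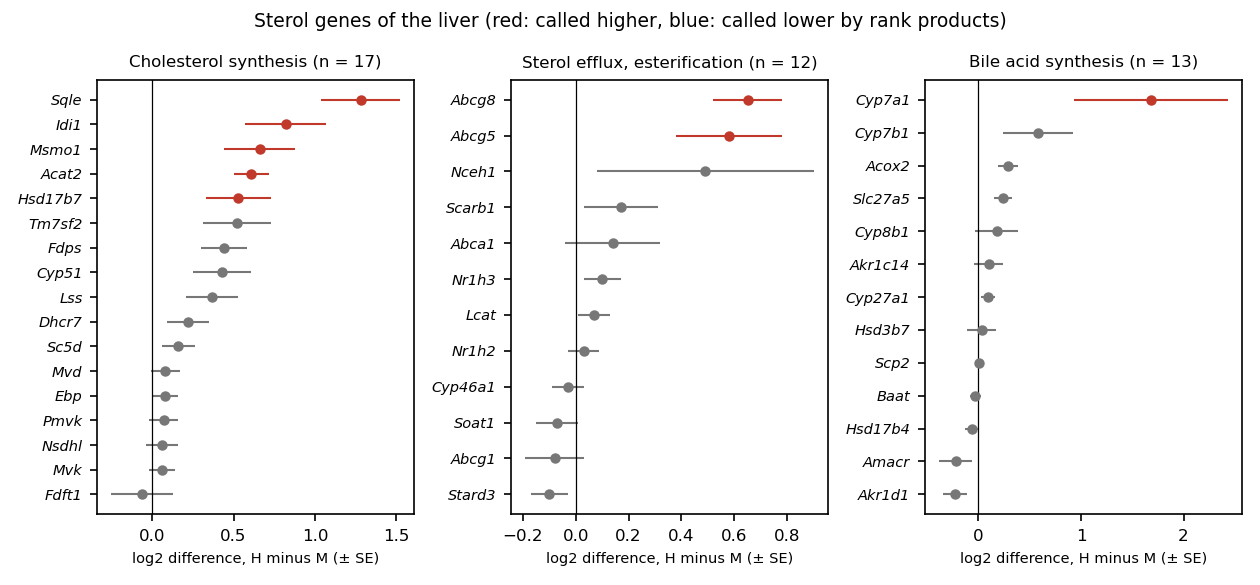
Log2 difference, H minus M (horizontal axis), with its standard error for each measured gene of cholesterol synthesis (17 genes), sterol efflux and esterification (12) and bile acid synthesis (13). Red marks the genes called higher by rank products: 5 synthesis enzymes led by Sqle at 1.28, both half-transporters Abcg5 and Abcg8, and Cyp7a1, whose standard error of 0.75 is the widest shown.

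Scd, stearoyl-CoA desaturase, had the largest difference of all probe sets called. It was at 9.54, 11.29, 11.22 and 11.73 in the M-group and at 10.43, 8.23, 6.57 and 8.75 in the H-group (-2.45 ± 0.65, 5.46-fold lower, adjusted p = 0.574). The groups overlapped by 2 rats, the low M6 and the high H12, and without H12 the difference was -3.09. Fads1, the delta-5 desaturase of polyunsaturated fatty acids, lay on the other side, at 10.01, 9.80, 9.92 and 10.47 against 10.65, 10.93, 10.75 and 10.26 (0.60 ± 0.25), and was called higher by rank products. Fads2, the delta-6 desaturase, differed by 0.36 ± 0.22 and Elovl6, which elongates palmitate, by -0.38 ± 0.16. The other probe set of Elovl6 was at -0.06. Over 11 measured genes of desaturation and elongation, 6 were higher and 5 lower, with a median of 0.04 that turned to -0.02 without M9 and to -0.03 when the probe sets of each gene were averaged. Srebf1, whose product drives fatty acid synthesis, differed by 0.39 ± 0.18 (adjusted p = 0.843) and none of the 15 measured genes of fatty acid synthesis was called.

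Fatty acid binding proteins were called in both directions. Fabp2, the intestinal form, was at 6.09, 5.56, 5.41 and 5.51 in the M-group and at 6.75, 6.76, 6.26 and 6.34 in the H-group (0.88 ± 0.17, adjusted p = 0.284). Fabp5, the epidermal form, was at 7.29, 7.28, 7.49 and 7.40 against 6.56, 6.83, 6.85 and 7.16 (-0.52 ± 0.11, adjusted p = 0.31). Neither overlapped between the groups, and rank products called Fabp2 higher and Fabp5 lower. Set against the L-group, with the same H arrays, Fabp2 differed by 1.12 (adjusted p = 0.0259). Apoa4, an apolipoprotein of triacylglycerol-rich particles, was at 11.24, 11.01, 11.20 and 10.95 against 10.29, 10.68, 10.25 and 11.06 (-0.53 ± 0.16). It was called lower although H16 lay among the M rats. Apom, carried on HDL, differed by only -0.18 ± 0.04, but its 4 H rats, 11.37 to 11.41, all lay below its 4 M rats, 11.55 to 11.61 (adjusted p = 0.501). Apoa1 (0.25 ± 0.09) and Mttp, which loads lipid onto apolipoprotein B (0.22 ± 0.09), lay on the higher side and were not called.

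For genes of fat storage and oxidation the calls are to be set beside 0.57% of all genes called higher and 0.373% called lower. Cidea, a lipid droplet protein, was at 7.76, 7.52, 7.02 and 8.53 against 8.19, 7.51, 9.16 and 9.10 (0.78 ± 0.49), called higher by rank products with overlap between the groups. The 20 measured genes of lipid droplets and lipolysis were 10 higher and 10 lower. None of the 20 genes of mitochondrial beta-oxidation was called by either test, none had an unadjusted limma p under 0.05, and their differences lay between -0.20 and 0.15, with Cpt1a, the entry step, at 0.15 ± 0.11. At such low shares over all genes, the lack of calls among 20 genes says little. Of 18 genes of peroxisomal and omega-oxidation 9 were higher and 9 lower, between -0.58 and 1.81. Rank products called Acot1 and Cyp4a8 higher, whose values are given below, and Ehhadh, an enzyme of peroxisomal beta-oxidation, lower (-0.48 ± 0.29, adjusted p = 0.898). Of 14 genes of triacylglycerol synthesis 7 were higher and 7 lower, and Gpd2 alone was called. Acot1, Cyp4a8 and Gpd2 had been picked by the study from these arrays by the same test, so their calls are no evidence of their own. In oxidative phosphorylation 27 of 31 genes were higher (52.4% of all genes), by a median of 0.04 (0.003 without M9) and at most 0.10. None of them was called or had an unadjusted limma p under 0.05. The median deviation over these 31 genes ran from -0.12 to 0.11 in the M rats and from -0.01 to 0.03 in the H rats, so that the H rats lay inside the range of the M rats.

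Genes that answer to growth hormone held some of the widest differences. Bcl6, a repressor known in mouse liver to oppose STAT5, was at 6.86, 8.47, 8.75 and 8.10 in the M-group and at 9.78, 9.49, 9.86 and 10.06 in the H-group. It was called higher (1.75 ± 0.46, 3.36-fold, adjusted p = 0.561), and the H rats were closer to each other than the M rats, of which M6 was low. Onecut1, the hepatocyte factor HNF6, which growth hormone raises, was at 10.37, 9.50, 9.92 and 11.24 against 8.79, 9.34, 7.20 and 8.14. It was called lower on both of its probe sets (-1.89 ± 0.52 and -1.83 ± 0.49, adjusted p = 0.618 and 0.595), each without overlap. Socs2, a STAT5 target that damps growth hormone signaling, was at 5.58, 5.63, 5.89 and 5.92 against 5.41, 4.54, 3.98 and 4.61 (-1.12 ± 0.36, adjusted p = 0.706). The 4 M rats lay close together above all H rats, and H12 came nearest to them.

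Cish, another STAT5 target of the same family, was uneven within both groups, at 5.11, 4.57, 7.20 and 7.19 in the M-group and at 6.41, 4.41, 4.22 and 4.26 in the H-group (-1.19 ± 0.72, adjusted p = 0.898). Rats M9, M10 and H12 were the high ones, and without H12 the difference was -1.72. Its second probe set differed by -0.96, and rank products called both lower. The promoter of Cish is shown because STAT5 is known to bind repeated elements in it. In the window at chr8:116850719-116851018 (plus strand, GRCr8) the letters TTCNNNGAA, searched on both strands, occurred 4 times, in 2 pairs, and are in capitals. Of the 13194 promoter windows, 7.33% held such a match.
Cish: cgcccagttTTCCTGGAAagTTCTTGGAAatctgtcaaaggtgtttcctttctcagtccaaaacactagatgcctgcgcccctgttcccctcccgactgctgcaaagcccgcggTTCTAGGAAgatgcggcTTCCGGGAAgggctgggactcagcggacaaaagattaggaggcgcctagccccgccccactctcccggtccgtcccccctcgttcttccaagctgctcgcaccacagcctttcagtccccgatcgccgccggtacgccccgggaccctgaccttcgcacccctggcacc

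The rest of the growth hormone list differed less. Over 17 measured genes 6 were higher and 11 lower (47.6% of all genes were lower), with a median of -0.06 (-0.01 without H13). Rank products called 1 higher and 3 lower, against 0.57% and 0.373% of all genes. Igfals, which holds IGF1 in the circulation, was at 10.14, 10.22, 10.12 and 10.07 against 9.88, 9.82, 9.77 and 10.14 (-0.23 ± 0.08), with H16 among the M rats. Ghr (-0.10 ± 0.09), Stat5b (0.04 ± 0.12) and Igf1 (-0.14 ± 0.08) differed by at most 0.14. Outside the list, Igfbp2, which insulin lowers, was at 5.46, 5.21, 4.96 and 5.15 against 5.46, 6.82, 5.79 and 5.59 (0.72 ± 0.23) and was called higher. Rat H13 stood above the rest, without it the difference was 0.42, and H12 was level with M6 to 2 decimals. Lepr, the leptin receptor, was at 6.68, 7.24, 7.49 and 7.17 against 6.03, 6.38, 6.26 and 7.02 (-0.72 ± 0.19) on its brightest probe set and was called lower, with H16 above M6. Of its 7 probe sets 3 were called lower and 6 were on the lower side.

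Crem, a gene that cAMP itself induces, was called lower on 4 of its 6 probe sets, and all 6 were on the lower side, from -0.72 to -0.34. On the brightest one it was at 9.95, 10.48, 10.11 and 10.54 in the M-group and at 9.71, 9.77, 9.48 and 9.54 in the H-group (-0.64 ± 0.13, adjusted p = 0.31), without overlap. RefSeq gives Crem several starts, and cAMP is known to act on an internal one. The window at chr17:58985240-58985539 (plus strand, GRCr8) is shown because it held the cAMP response element TGACGTCA 2 times (in capitals), an element found in 2.71% of the 13194 windows.
Crem: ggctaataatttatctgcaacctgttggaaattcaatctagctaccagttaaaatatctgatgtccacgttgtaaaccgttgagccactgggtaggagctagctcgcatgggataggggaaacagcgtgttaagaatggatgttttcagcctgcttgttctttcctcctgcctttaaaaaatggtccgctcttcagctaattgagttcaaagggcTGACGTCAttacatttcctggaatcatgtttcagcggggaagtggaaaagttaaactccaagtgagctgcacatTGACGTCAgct
The window of another start held 1 match and that of yet another none. Which start gave the transcripts read by the probe sets was not analysed here.

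Other genes of the immediate early class varied strongly between rats of one diet. Atf3, a stress-induced repressor, was at 7.38, 5.16, 8.71 and 7.41 against 6.56, 4.61, 6.77 and 6.04 (-1.17 ± 0.70) and was called lower with wide overlap. Dusp1, a phosphatase of MAP kinases, was at 11.66, 11.12, 11.91 and 11.88 against 11.12, 10.99, 11.03 and 11.23 (-0.55 ± 0.16), and both its probe sets were called lower. Rat M8 was the low M rat for both genes and overlapped with the H rats. Fos (0.56 ± 0.51) and Gadd45b (0.53 ± 0.27) were called higher and Gadd45g (-0.95 ± 0.94) lower, all with overlap. The other probe set of Fos differed by 0.05 and was not called. The size of these differences depended on single rats. Without M9 the difference was -0.66 for Atf3, 1.0 for Fos and -0.37 for Gadd45g, and without M8 it was -1.84 for Atf3 and 0.15 for Fos. Gadd45g differed by -1.72 without H12, and Gadd45b by 0.84 without M6 and 0.35 without M10. For Gadd45g the levels of 9.44 in M9 and 9.09 in H12 were the highest of the 8, as M9 and H12 were among the high rats for Cish. Over the 32 measured immediate early genes 13 were higher and 19 lower (47.6% of all genes were lower). Rank products called 2 of the 32 higher and 3 lower, against 0.57% and 0.373% of all genes. The median deviation of the list ran from -0.33 in M8 to 0.24 in M9, beyond the -0.19 to 0.10 of the H rats.

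The clock genes differed more among the M rats than between the diets. Bhlhe41, a clock repressor, was the only one of 21 that rank products called, at 3.56, 3.53, 4.30 and 4.46 against 5.08, 4.13, 4.62 and 5.0 (0.75 ± 0.25, adjusted p = 0.725). Bmal1, which peaks opposite to Per2, was at 5.87, 4.93, 3.78 and 3.88 in the M-group and 3.82, 4.34, 4.20 and 3.85 in the H-group, and Per2 at 7.43, 8.32, 9.12 and 8.94 against 8.91, 8.35, 8.97 and 9.16. Rat M6, followed by M8, was thus the highest of the 8 in Bmal1 and the lowest in Per2, while M9 and M10 stood near the H rats. Npas2, a relative of CLOCK that pairs with BMAL1, was also highest in M6 and M8, at 6.86, 5.92, 4.28 and 4.32 against 5.35, 5.06, 4.60 and 4.60. Its difference of -0.44 ± 0.61 turned to 0.07 without M6, without which Bmal1 differed by -0.15 and Per2 by 0.06. With all rats Per2 differed by 0.40 ± 0.35, and by -0.00 on its other probe set. The rats were dissected in the early light phase, and the time for each rat is not given in the sources used here.

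Heat shock genes lay mostly higher in the H-group. Hspb1, a small chaperone, was at 5.68, 5.29, 5.66 and 5.73 in the M-group and at 6.36, 6.79, 7.0 and 6.97 in the H-group (1.19 ± 0.19, 2.28-fold, adjusted p = 0.15). No rats overlapped, and the L-group, at 5.98 ± 0.38 (SD, n = 5), lay between. Hspa1a, the inducible HSP70, was at 6.31, 6.07, 4.91 and 5.79 against 7.83, 7.80, 6.35 and 6.50 (1.35 ± 0.53, adjusted p = 0.805), and its probes may also read its near-identical copy Hspa1b. Both were called higher by rank products, Hspa1a with H15 only just above M6. The L-group mean of Hspa1a, 6.84, was close to the H-group mean of 7.12. Stip1, which links HSP70 and HSP90, was at 7.20, 7.17, 6.92 and 7.24 against 7.59, 7.64, 7.43 and 7.58 (0.42 ± 0.11), and Hspb8 differed by 0.36 ± 0.11, both without overlap and not called. Of 18 measured heat shock genes 14 were higher (52.4% of all genes) and 4 lower, with a median of 0.18 (0.08 without M9). An unadjusted limma p under 0.05 was met by 4 on the higher side (3.65% of all genes), and rank products called 2 higher (0.57%).

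Targets of NRF2, the factor that answers to oxidants and electrophiles, were also higher in number, 18 of 21 (52.4% of all genes), with a median of 0.19. Rank products called 2 of them higher (0.57% of all genes), and limma passed none. Of these 2, Akr7a3 had been picked by the study from these arrays by the same test, so its call is no evidence of its own. An unadjusted limma p under 0.05 on the higher side was met by 8 (3.65% of all genes). Nqo1, a quinone reductase, was at 5.18, 5.25, 5.38 and 5.55 in the M-group and at 5.75, 5.78, 7.41 and 6.11 in the H-group (0.92 ± 0.30, adjusted p = 0.706), without overlap. Akr7a3, which reduces aflatoxin aldehydes, was at 7.99, 8.99, 7.85 and 7.81 against 9.31, 8.96, 10.36 and 8.96 (1.24 ± 0.43, adjusted p = 0.75), where M8 lay just above H13 and H16. Rat H15 was the highest for both, and without it Nqo1 differed by 0.54 and Akr7a3 by 0.92. Srxn1 (0.42 ± 0.16), the exporter Abcc4 (0.33 ± 0.10) and Gsta4 (0.21 ± 0.07) were on the higher side and were not called. The list was not uniform, since Hmox1 differed by -0.10 ± 0.17 and Slc7a11 by 0.03 ± 0.08.

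Genes of the pericentral zone were all on the higher side, 17 of 17 measured (52.4% of all genes were higher), with a median of 0.16. Genes of the periportal zone were 4 higher and 12 lower (47.6% of all genes were lower), with a median of -0.08 (-0.03 without M9). Rank products called 3 pericentral genes higher and 2 periportal genes lower, against 0.57% and 0.373% of all genes, and limma none. An unadjusted limma p under 0.05 was met by 4 pericentral genes on the higher side (3.65% of all genes). It was met by 2 periportal genes on the lower side (2.74%). Nr1i3, the xenobiotic receptor CAR, was at 8.38, 7.68, 7.53 and 7.56 in the M-group and at 7.77, 8.65, 8.94 and 9.22 in the H-group (0.86 ± 0.25, adjusted p = 0.69). M6 and H12 crossed over, and the other 6 rats were apart. Tbx3, a Wnt-induced factor of the pericentral zone, was at 6.22, 6.49, 5.28 and 5.05 against 6.05, 7.04, 6.26 and 6.62 (0.73 ± 0.35). Of its 4 probe sets, all on the higher side from 0.05 to 0.73, only this one was called. The third call was Cyp7a1, which is also a gene of bile acid synthesis. Among the abundant pericentral enzymes, Cyp2e1 was at 13.23, 13.06, 13.29 and 13.28 against 13.29, 13.50, 13.39 and 13.50 (0.20 ± 0.07), and Cyp1a2 differed by 0.47 ± 0.21 (0.30 without M8). Glul (0.16 ± 0.20), Axin2 (0.16 ± 0.11) and Lgr5 (0.05 ± 0.10), the genes nearest to Wnt signaling, were within 2 standard errors of 0.

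Hal, which degrades histidine, was at 9.40, 9.48, 9.78 and 9.53 in the M-group and at 8.98, 8.95, 9.55 and 8.63 in the H-group (-0.52 ± 0.16, adjusted p = 0.706), with H15 among the M rats. Sds, which degrades serine, was at 5.66, 7.42, 8.53 and 8.05 against 7.01, 5.56, 7.37 and 5.86 (-0.96 ± 0.66), where M6 was as low as the lowest H rats. Without M6 the difference of Sds was -1.55 and without M9 -0.59. Both were called lower, but Sds had been picked by the study from these arrays by the same test, so its call is no evidence of its own. Fbp1, of gluconeogenesis, differed by -0.15 ± 0.06, and Pck1 by -0.08 ± 0.06, and the urea cycle genes Cps1, Ass1 and Arg1 by at most 0.08. By rat, the median deviation of the pericentral genes was -0.12, -0.26, 0.01 and -0.04 in the M-group and -0.07, 0.22, 0.13 and 0.09 in the H-group, so that only H12 fell among the M rats. That of the periportal genes was -0.05, 0.13, 0.16 and 0.00 against -0.11, -0.02, 0.08 and -0.03, with overlap.

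**Figure D4:**
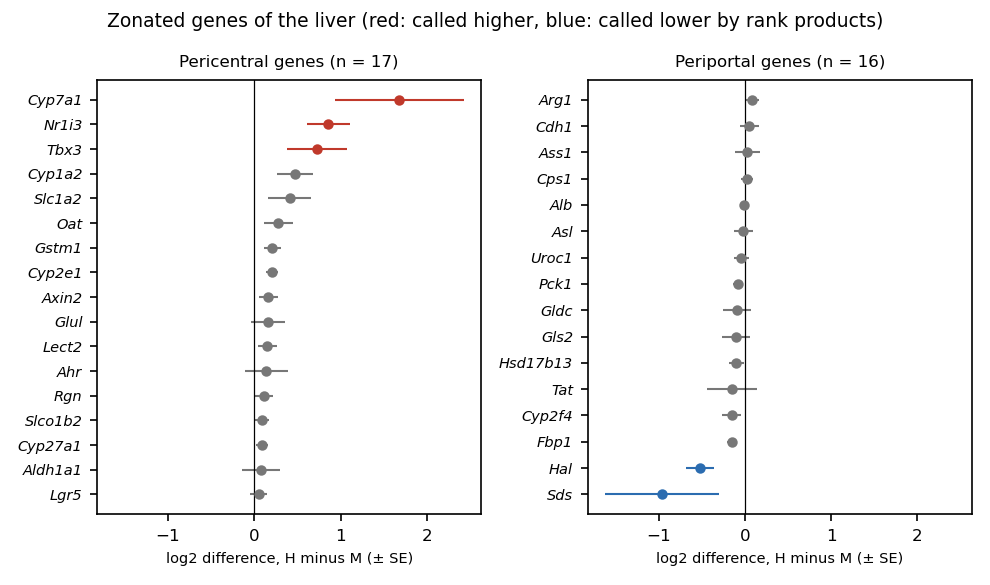
Log2 difference, H minus M (horizontal axis, the same scale in both panels), with its standard error for 17 pericentral and 16 periportal genes. All 17 pericentral genes lie to the right of 0, 3 of them called higher (red), and 12 of the 16 periportal genes lie to the left, with Hal and Sds called lower (blue).

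A set of metabolic enzymes had been singled out in the study because the M-group stood apart from both other diets. Of these 11, 9 had a probe set annotated to them alone, 8 of them higher in the H-group and Sds lower, and Gpat3 and Cyp2b1 were not analysed here. Rank products called all 9, but since they were picked from these arrays by the same test, the calls are a description and no evidence of their own. Sqor, a mitochondrial sulfide oxidoreductase, was at 9.65, 7.44, 9.18 and 7.62 in the M-group and at 9.79, 9.71, 9.03 and 9.74 in the H-group (1.09 ± 0.51), with M8 and M10 low. Acot1, an acyl-CoA thioesterase with a near-identical neighbour, was at 8.10, 6.37, 4.42 and 4.30 against 7.38, 8.95, 4.52 and 9.58 (1.81 ± 1.0). It ranged widely within each group, and the difference was 2.84 without H15 and 1.16 without H16. Gpd2, the mitochondrial glycerol phosphate dehydrogenase, was at 6.26, 5.86, 5.48 and 5.73 against 6.86, 6.33, 5.93 and 6.98 (0.69 ± 0.26).

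Cyp26b1, which clears retinoic acid, differed by 0.64 ± 0.25, the medium-chain acyl-CoA synthetase Acsm2 by 1.0 ± 0.60, Gstt3, a glutathione transferase, by 0.64 ± 0.78, and the fatty acid hydroxylase Cyp4a8 by 0.43 ± 0.40. All of these overlapped between the groups. The other probe set of Cyp26b1 was at 0.09 and was not called. Without M9 the difference was 0.26 for Gstt3, 0.21 for Cyp4a8 and 1.55 for Acsm2. It was 1.34 for Gstt3 without H12, 0.89 for Cyp4a8 without M6 and 0.62 for Acsm2 without H16. For Gstt3 the lowest of the 8 rats, at 6.82, was H12 and the highest, at 10.19, was M8. Over the 9 genes the median deviation was -0.05, -0.34, -0.70 and -0.90 in the M-group and 0.30, 0.40, 0.29 and 0.72 in the H-group, so M6 stood nearest to the H rats and M10 farthest from them. Adjusted p ranged from 0.75 for Akr7a3 to 0.959 for Gstt3.

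**Figure D5:**
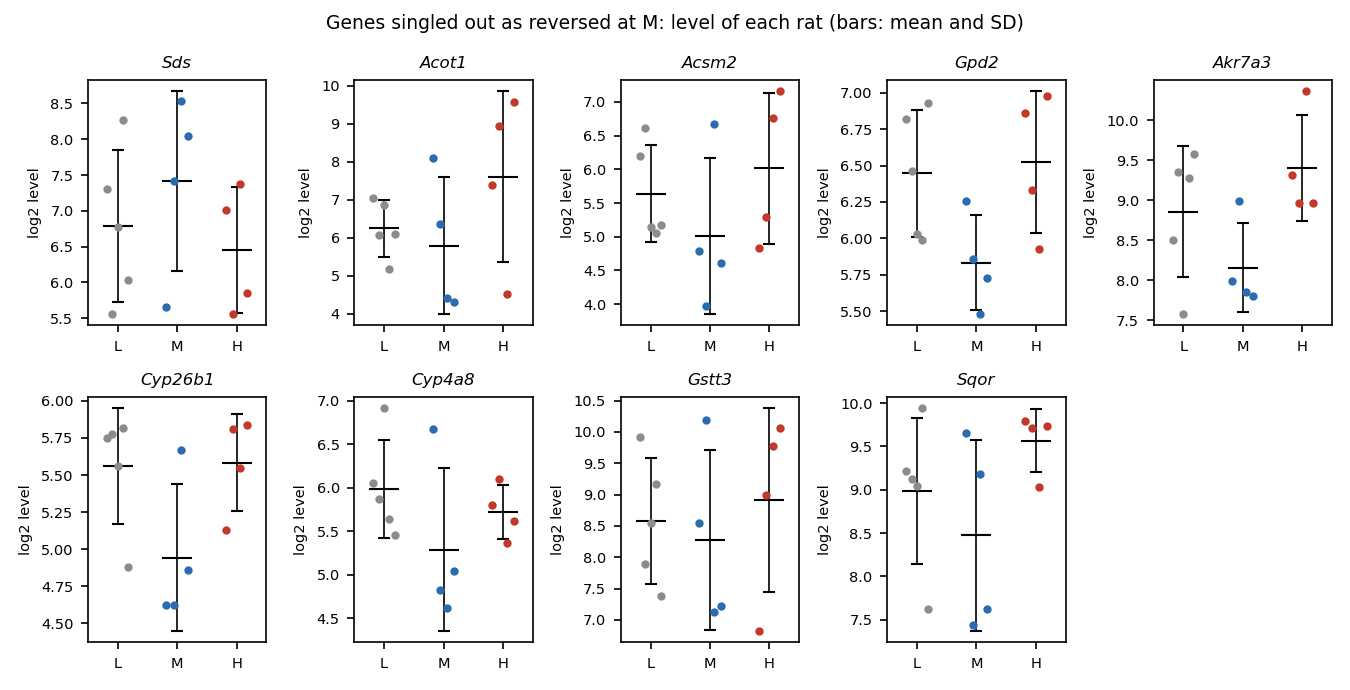
Log2 RMA level (vertical axis, its range set for each gene) of each rat of the L-, M- and H-groups (horizontal axis, 5, 4 and 4 livers) for 9 enzymes that the study had singled out. Bars are means and SDs. In each gene some M and H rats overlap, and Acot1 spans from 4.30 to 9.58 over the M and H rats.

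Immune genes differed in both directions, and some were high in the same rats. The class II antigen genes RT1-Da and Cd74 were at 9.60, 9.12, 9.71 and 8.87 and at 9.63, 9.12, 9.59 and 8.87 in the M-group, against 9.28, 8.34, 8.67 and 8.83 and 9.20, 8.29, 8.80 and 8.78 in the H-group. Both differed by about the same amount (-0.55 ± 0.20 and -0.54 ± 0.18), with H12 among the M rats, and RT1-Da was called lower. Gbp2, an interferon-induced GTPase, was at 6.48, 5.51, 6.52 and 5.73 against 7.43, 6.15, 7.20 and 6.14 (0.67 ± 0.31) and was called higher, with a difference of 0.44 without H12. Irf1 differed by 0.52 ± 0.20, at 7.88, 7.10, 7.74 and 7.09 in the H-group. Rats H12 and H15 were high for Gbp2 and Irf1, the rats that were also high for Cxcl1. The median deviation over 26 interferon response genes was 0.65 in H15 and 0.19 in H12 against -0.25 and -0.29 in H13 and H16, and from -0.21 to 0.15 in the M rats. The median difference of this list, 0.13, became -0.10 without H15.

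Macrophage markers varied with the rat as some of these genes did. The median deviation of 11 Kupffer cell and macrophage markers was 0.23, -0.20, 0.29 and -0.28 in the M-group and 0.05, -0.09, 0.28 and -0.25 in the H-group. Rats M6, M9, H12 and H15 were thus above the others within their group, as they were for Gbp2, and M6, M9 and H12 were for RT1-Da and Cd74. The part of the macrophage markers in these differences was not tested. Between the diets the markers overlapped. The summed linear level of 11 Kupffer cell and macrophage markers was 5850 to 7410 in the M-group and 5540 to 7870 in the H-group, that of 8 neutrophil markers 203 to 267 against 233 to 323, and that of 15 T and NK cell markers 514 to 730 against 538 to 648. Of 9 cholangiocyte markers the sum was 1740 to 2120 in the M-group and 2160 to 2240 in the H-group, without overlap but with no gene called. Their log2 means ran from 2.75 to 10.26, so this linear sum is weighted to the brightest. By gene, 5 were higher and 4 lower, with a median difference of 0.01. For 6 of the 8 neutrophil, 11 of the 15 T and NK cell and 5 of the 9 cholangiocyte markers the mean lay below the median of the arrays. Pparg, on the adipocyte list and a nuclear receptor that favours fat storage, was at 5.32, 5.74, 5.32 and 5.25 against 5.05, 4.69, 5.15 and 4.86 (-0.47 ± 0.11, adjusted p = 0.471), without overlap and not called. The other 7 adipocyte markers were not called either, and the list summed to 892 to 1090 in the M-group and 899 to 1090 in the H-group.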

How the data were processed

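Liver RNA of each rat was hybridised to an Affymetrix rat expression array, 1 per rat. The deposited liver values are log2 intensities that the authors computed with RMA, which corrects background, normalizes quantiles and summarizes probes, so a change shared by all genes cannot be seen. Versions of the authors' tools are not given in the labels. The liver values ran from 1.78 to 14.3 with array medians of 4.671 to 4.698. White and brown fat arrays were processed by other methods and were not used here. Precision is limited by 4 arrays a group.

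After 57 control probe sets were left out of 31099, 31042 were tested. The platform annotation gave 1 gene symbol to 20826, several to 436 and none to 9780, with symbols updated through the RefSeq GRCr8 table where matched (20760). For each of 14217 genes, the probe set annotated to that gene alone and brightest on average over the livers was used, except that genes named for passing limma or for the largest differences without overlap are given on the probe set that met that rule. Rank products, the test the authors used, was computed in Python 3.11.15 (numpy 2.4.6, pandas 2.3.3, scipy 1.17.1) over all pairwise ratios of the 8 arrays with 100 permutations and called at an FDR under 0.05. limma 3.58.1 (R 4.3.3) was fitted to all 13 liver arrays with the contrast H minus M and adjusted by Benjamini-Hochberg over all 31042. Both were tested on simulated data.

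Named genes were those past limma, up to 15 in each direction called by rank products without overlap and with the largest difference, up to 4 with the smallest p and all those called in each gene list, and the genes the study names. The 2 probe sets past limma without a symbol were named after their values were seen. Samples, gene lists (55, with 825 of 916 genes measured) and tests were chosen with earlier results of these data known. Nothing says whether arrays were run in batches. Promoter windows came from RefSeq (GRCr8), and genes without a window were not analysed for motifs. Alternatives tried were array centring, quantile normalization, leaving out dim probe sets, other thresholds, the M and H arrays alone, array weights, a robust trend, the mean of probe sets and leaving out each rat.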

Additional observations from a re-analysis of the deposited data

Results flagged for a closer look

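In 198 sets of 4 rats examined (99 genes in the M- and the H-group), 13 held a rat far from the other 3 by Dixon's criterion at the 95% level, which sets the gap to the nearest rat against the whole range. Chance marks about 1 in 20 such sets. The low M rat of Slc39a4 was M6 at 7.27 (median of the other rats 7.50), and its low H rat was H13 at 6.38 (6.78). Rat H12 stood high for Cyp7b1 at 4.95 (3.10), for Cish at 6.41 (4.26) and for the probe set 1393192_at at 8.36 (8.11). Rat M8 was low for Hspb1 at 5.29 (5.68) and high for Akr7a3 at 8.99 (7.85) and Pparg at 5.74 (5.32). Rat H15 was low for Sqor at 9.03 (9.74) and for Ahctf1 at 7.0 (7.31). The clock gene Nr1d1 was low in M6 at 6.68 (7.15), Irf1 was low in M10 at 6.58 (7.07), and Sult2a6 was high in M9 at 11.37 (10.47).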

How the results depend on the processing

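The rank products count of 237 probe sets (131 higher, 106 lower) was 237 again with centred arrays and 231 after quantile normalization. It was 142 (86 and 56) with probe sets above the median only, 88 (49 and 39) at an FDR under 0.01 and 4 (2 and 2) with limma in its place. Without 1 rat it ran from 146 to 226, calls higher from 58 to 174 and calls lower from 45 to 109. The limma count of 4 (2 higher, 2 lower) stayed 4 with array weights and with a robust trend. It was 3 (1 higher) among probe sets above the median, 0 (0 and 0) with the M and H arrays alone, 432 (239 and 193) at an unadjusted p under 0.01 and 237 (131 and 106) with rank products in its place. Without 1 rat it ran from 1 to 6, calls higher from 1 to 5 and calls lower from 0 to 2. Of 1969 values for 99 single genes under these alternatives, 1940 kept their direction and side of the threshold, 25 lost a limma call, 3 gained one (Sqle without H16, Abcg8 without H15, and Adam22 without L3, at 1.46 with adjusted p = 0.0203) and 1 changed sign (Npas2, -0.44, from -0.80 to 0.07 without 1 rat, the latter without M6). Of 605 list medians 28 moved by more than the spread between rats. The causes were not tested. No paired analysis was possible because the M and H rats carry different numbers. With 4 arrays a group, standard errors of 0.65 for Scd and 0.75 for Cyp7a1 left differences of -2.45 and 1.68 short of the threshold.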
